A study of Mus musculus with 8 samples.

Results

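Syndecans and glypicans are the 2 main families of cell surface heparan sulfate proteoglycans, and this account follows 8 of their genes, Sdc1, Sdc2, Sdc3, Sdc4, Gpc1, Gpc3, Gpc4 and Gpc6, through mouse corneas with and without excess TGF-beta. The members were chosen by name, as all probe sets that the platform annotation assigns to 1 of these symbols alone. They are 22 probe sets, from 1 each for Gpc1 and Gpc3 to 5 for Gpc6, out of 45037 tested, and 8 of 18193 genes. Corneal RNA was hybridised to 8 Affymetrix arrays of 1 colour. The TGFB group holds 4 arrays of corneas from mice that overexpress TGF-beta, and the wildtype group holds 4 arrays of corneas from their littermates without it. The labels give no strain, age, TGF-beta isoform, promoter or expressing tissue, and leave unsaid if arrays come from different animals. All p-values here therefore reflect array-to-array spread alone, and this spread may be technical.

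Both families consist of a core protein that carries long sulfated sugar chains outside the cell. Syndecans cross the membrane and end in a short cytoplasmic tail that binds adaptor proteins, while glypicans are held on the outer leaflet by a lipid anchor. Through their chains they hold growth factors such as FGFs, WNTs and hedgehogs near their receptors and bind matrix proteins, and enzymes can shed them or edit their sulfation. In the mouse cornea syndecan-1 is known from the epithelium, where its loss slows wound closure.

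Corneal genes were present on every array. The stromal keratan sulfate proteoglycan gene Kera gave signals of 2073 to 4154 in TGFB, against 2538 to 8110 in wildtype arrays, and the corneal keratin gene Krt12 gave 289 to 4551 and 562 to 5766. Transcripts of cornified epidermis, which the cornea lacks, varied widely between arrays. Summed signals of 7 cornified epidermis genes were 38191, 45220, 1083 and 1049 in TGFB 1 to 4 and 712, 24637, 1551 and 1007 in wildtype 1 to 4, so that TGFB 1, TGFB 2 and wildtype 2 stood apart. Gapdh probe sets at the 3' and 5' ends of the transcript, whose ratio is higher in degraded RNA, gave a 3'/5' ratio of 6.41 in wildtype 4, and of 2.19 to 4.31 elsewhere.

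No syndecan or glypican probe set passed limma's adjusted p under 0.05, and neither did any of the 45037 probe sets (0% called, smallest adjusted p = 0.822). Adjusted p of the 22 members ran from 0.837 to 0.998. At an unadjusted p under 0.05 limma marked 2 of 22, both lower in TGFB, one of Gpc6 and one of Sdc2, where 5.86% of all probe sets were marked, 2.7% higher and 3.16% lower. The 11 higher and 11 lower members, where 51.6% of all probe sets were higher, had differences from -0.63 to 0.46 on the log2(signal + 16) scale, used for all differences here. Their median was -0.046, against 0.009 for all probe sets. Of the 22, 19 lay above the 40th percentile of mean values over all probe sets. The 3 others, 1 each of Sdc1, Sdc2 and Sdc3, were dim. In these bulk samples fewer cells of a type and less RNA per cell cannot be told apart.

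**Figure D1:**
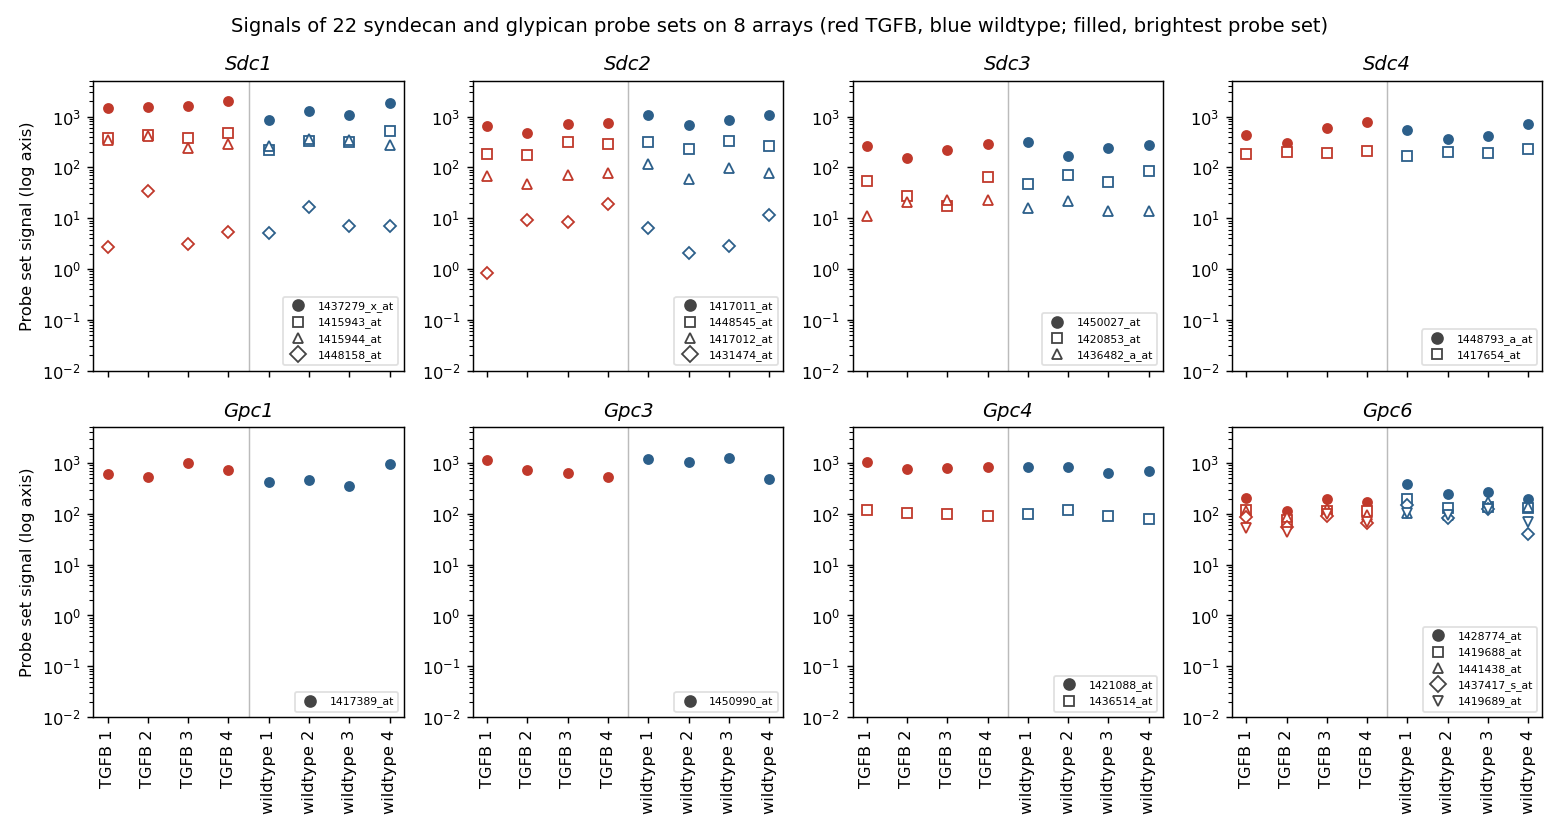
Signals (log axis) of the 22 probe sets on each array, 1 panel per gene, with TGFB arrays in red and wildtype arrays in blue and the brightest probe set of each gene filled. Most probe sets overlap between the groups, and the brightest Sdc1, Gpc1 and Gpc3 probe sets of wildtype 4 lie within or beyond the range of the TGFB arrays, away from wildtype 1 to 3.

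Sdc1, the syndecan of epithelial cells, had a higher mean in TGFB corneas on its brightest probe set. Probe set 1437279_x_at gave signals of 1484, 1521, 1631 and 2063 in the TGFB arrays, against 838, 1293, 1086 and 1810 in the wildtype arrays. TGFB 4 was the highest array and wildtype 1 the lowest, and the groups overlapped only through wildtype 4. The mean was 10.71 ± 0.21 in TGFB and 10.26 ± 0.46 in wildtype corneas (SD, n = 4 each), a difference of 0.45 (SE 0.23, 95% interval -0.07 to 0.98, limma adjusted p = 0.876). Probe set 1415943_at ran in parallel, with 382, 429, 379.6 and 477 in TGFB, against 216, 327, 312 and 512 in wildtype arrays, a difference of 0.33 (SE 0.23). These probe sets correlated across the 8 arrays (Pearson r = 0.95, Spearman rho = 0.90, a description only). The other pair did not follow. Probe set 1415944_at gave 343, 411, 241 and 283 in TGFB, against 269, 359, 340.2 and 278 in wildtype arrays, a difference of 0.02 (SE 0.19) and a correlation of r = -0.10 with the brightest. Probe set 1448158_at was below a signal of 16 on 6 of 8 arrays and reached 33.8 in TGFB 2 and 16.7 in wildtype 2. The gap between the differences of 1437279_x_at and 1415944_at was 0.43 (exact two-sided permutation p = 0.171, adjusted over 14 such pairs within genes 0.444).

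The promoter sequences of 5 members are shown, so that Sdc1, with the higher mean, can be set beside the others. Gpc3 ran opposite to Sdc1 across the arrays, and Gpc4 is the neighbour of Gpc3 on the X chromosome. Sdc3 and Sdc4 had the differences nearest 0 among the brightest probe sets. Each sequence is the 250 bases before the gene's start, 5′ to 3′ on the gene's strand. The source is RefSeq (GRCm38.p6), whose promoter table held 5 of the 8 members. Sdc1 lies at chr12:8771146-8771395 and Sdc3 at chr4:130792287-130792536 (both on the plus strand), Sdc4 at chr2:164443189-164443438, Gpc3 at chrX:52613975-52614224 and Gpc4 at chrX:52164924-52165173 (the last 3 on the minus strand). Capitals mark matches, on either strand, to the GC box GGGCGG, the SMAD box GTCTG, the AP-1 site TGANTCA and the TATA box TATAAA.
Sdc1: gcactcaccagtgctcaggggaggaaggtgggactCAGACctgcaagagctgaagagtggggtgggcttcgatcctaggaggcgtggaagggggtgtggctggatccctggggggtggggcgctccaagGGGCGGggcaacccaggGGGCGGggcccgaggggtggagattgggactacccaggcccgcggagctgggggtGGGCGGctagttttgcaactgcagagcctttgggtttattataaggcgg
Sdc3: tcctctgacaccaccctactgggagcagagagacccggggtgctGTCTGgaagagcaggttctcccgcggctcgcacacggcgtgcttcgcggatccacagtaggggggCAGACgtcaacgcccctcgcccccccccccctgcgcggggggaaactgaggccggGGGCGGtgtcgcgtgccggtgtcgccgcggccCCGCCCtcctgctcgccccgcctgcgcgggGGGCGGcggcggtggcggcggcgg
Sdc4: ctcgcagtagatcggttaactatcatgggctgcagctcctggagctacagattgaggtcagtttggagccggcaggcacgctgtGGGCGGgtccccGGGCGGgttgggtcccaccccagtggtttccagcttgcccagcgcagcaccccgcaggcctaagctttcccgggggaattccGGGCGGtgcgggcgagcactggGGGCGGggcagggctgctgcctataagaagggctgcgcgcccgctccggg
Gpc3: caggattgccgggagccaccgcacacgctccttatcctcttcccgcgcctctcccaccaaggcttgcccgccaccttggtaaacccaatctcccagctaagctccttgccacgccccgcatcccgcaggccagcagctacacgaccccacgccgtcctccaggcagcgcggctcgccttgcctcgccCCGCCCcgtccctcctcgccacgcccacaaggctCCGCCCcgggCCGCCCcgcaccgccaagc
Gpc4: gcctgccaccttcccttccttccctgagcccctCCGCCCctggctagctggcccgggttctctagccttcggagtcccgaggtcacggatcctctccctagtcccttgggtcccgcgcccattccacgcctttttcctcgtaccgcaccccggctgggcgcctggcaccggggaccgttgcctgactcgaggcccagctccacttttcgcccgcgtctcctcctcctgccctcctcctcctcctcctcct
The GC box occurred 3 times each in Sdc1 and Sdc3, 4 times in Sdc4, 3 times in Gpc3 and 1 time in Gpc4. It was found in 32.7% of the 32851 promoter windows of this length. GC content was 66.0% in Sdc1, 76.4% in Sdc3, 68.0% in Sdc4, 71.6% in Gpc3 and 68.4% in Gpc4, against a median of 52.4% over all windows. The SMAD box, the letters that SMAD proteins downstream of TGF-beta bind, occurred 2 times in Sdc3 and 1 time in Sdc1, and was not found in the other windows. That box was found in 42.2% of all windows. None of the 5 windows held the AP-1 site or the TATA letters, found in 6.75% and 12.4% of windows. No match overlapped another kind of match. These are matches of letters and not shown sites.

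Sdc2, the syndecan of mesenchymal cells and fibroblasts, had a lower mean in TGFB corneas on its brightest probe set. Probe set 1417011_at gave 651, 476, 714 and 733 in TGFB, against 1072, 673, 849.6 and 1065 in wildtype arrays. TGFB 2 was lowest, wildtype 1 and wildtype 4 were highest, and the groups overlapped only through wildtype 2. The mean was 9.35 ± 0.28 in TGFB and 9.84 ± 0.31 in wildtype corneas (SD, n = 4 each), a difference of -0.49 (SE 0.20, 95% interval -0.95 to -0.04, limma adjusted p = 0.839). The exact two-sided permutation test gave p = 0.0857, where 0.0286 is the smallest possible with 4 arrays against 4. Probe sets 1448545_at and 1417012_at had differences of -0.25 (SE 0.22) and -0.32 (SE 0.21), and both correlated with the brightest (r = 0.72 and 0.86 over 8 arrays). Probe set 1431474_at, below 16 on 7 of 8 arrays, had a difference of 0.19 (SE 0.23).

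Sdc3, a syndecan known from nerve and muscle, gave no common direction. Its brightest probe set 1450027_at gave 267, 156, 219 and 293 in TGFB, against 323, 169, 244 and 272 in wildtype arrays, a difference of -0.10 (SE 0.24, 95% interval -0.64 to 0.44). The low arrays were TGFB 2 and wildtype 2, one in each group. Probe set 1420853_at gave 53.4, 26.8, 17.1 and 64.6 in TGFB, against 47.7, 69.5, 51.4 and 83.8 in wildtype arrays, a difference of -0.55 (SE 0.29, adjusted p = 0.883 by limma). The dim 1436482_a_at had 0.12 (SE 0.17).

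Sdc4, the syndecan of focal adhesions, was the member with the differences nearest 0. Probe set 1448793_a_at gave 426, 301, 597 and 792 in TGFB, against 535, 369.9, 424 and 704 in wildtype arrays. TGFB 4 and wildtype 4 were the highest arrays and TGFB 2 and wildtype 2 the lowest of their groups, and the groups overlapped throughout. The difference was 0.01 (SE 0.31, 95% interval -0.68 to 0.70), with SDs of 0.58 in TGFB and 0.39 in wildtype corneas. The second probe set, 1417654_at, varied little, with 184, 199, 194 and 208 in TGFB, against 164, 200.3, 193 and 225 in wildtype arrays. Its difference of 0.01 (SE 0.13) had a 95% interval from -0.29 to 0.31, narrower than that of the first.

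**Figure D2:**
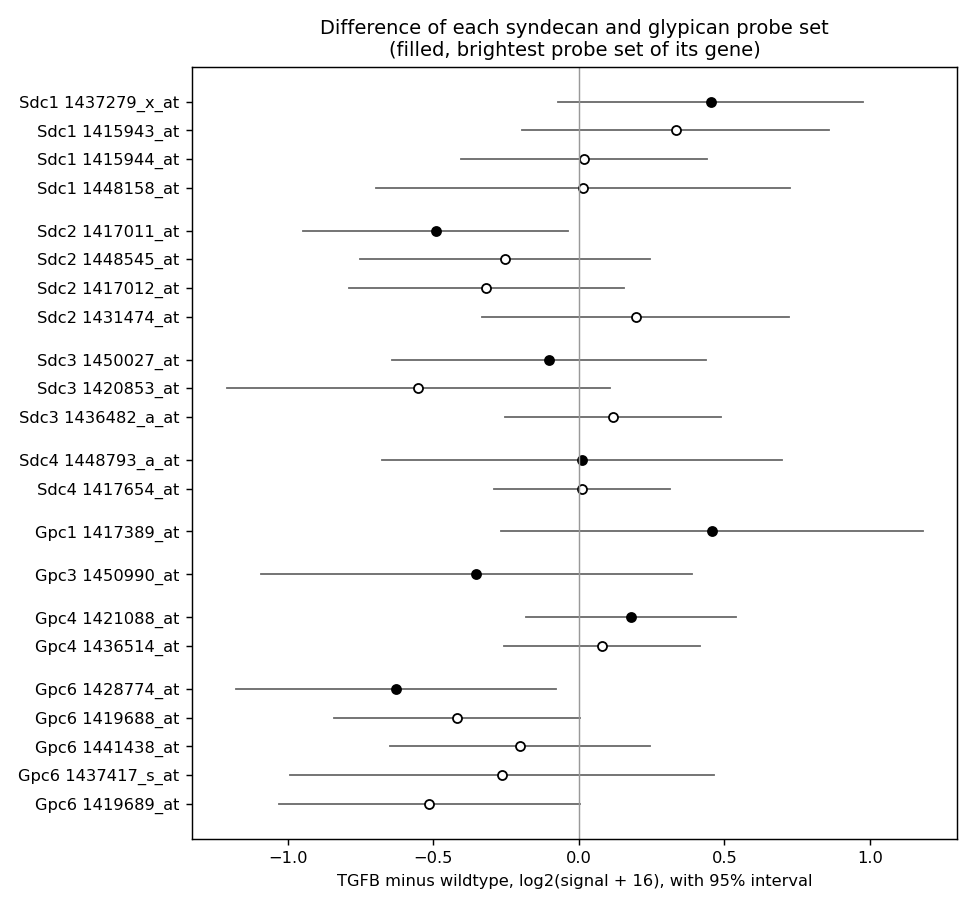
Difference of each of the 22 probe sets between TGFB and wildtype corneas on the log2(signal + 16) scale, with the 95% interval from limma, brightest probe set of each gene filled. All 5 Gpc6 probe sets lie below 0 and both Sdc4 probe sets lie at 0.01, and 2 intervals, those of 1428774_at (Gpc6) and 1417011_at (Sdc2), leave out 0.

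Among glypicans, Gpc6 had lower means in TGFB corneas on all 5 of its probe sets. Gpc6 encodes a glypican whose loss in humans causes a skeletal dysplasia. Its brightest probe set, 1428774_at, gave 203, 111.5, 193 and 172 in TGFB, against 394, 242, 266 and 194 in wildtype arrays. Wildtype 1 was the highest array and TGFB 2 the lowest, and the groups overlapped through TGFB 1 and wildtype 4 alone. The mean was 7.51 ± 0.35 in TGFB and 8.13 ± 0.40 in wildtype corneas (SD, n = 4 each), a difference of -0.63 (SE 0.24, 95% interval -1.18 to -0.08, limma adjusted p = 0.837, exact two-sided permutation p = 0.0571).

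Probe set 1419688_at of Gpc6 was the single member whose groups did not overlap, at 116, 74.1, 116 and 116 in TGFB, against 191, 128, 137 and 129 in wildtype arrays. Over all probe sets 3.28% showed no overlap, 1.81% with TGFB lower. Its difference was -0.42 (SE 0.19, limma adjusted p = 0.846), with the exact permutation p at its minimum of 0.0286. The remaining Gpc6 probe sets had differences of -0.51 (1419689_at, SE 0.23), -0.26 (1437417_s_at, SE 0.32) and -0.20 (1441438_at, SE 0.20). They share a gene and the same arrays, so their common sign is not 5 separate observations. Across the 8 arrays 1419688_at ran nearly in parallel with the brightest probe set, 1428774_at (r = 0.97), while 1441438_at did so less (r = 0.34).

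Gpc1, a glypican that assists FGF signalling, had the highest difference of the members and a wide spread. Probe set 1417389_at gave 609, 526, 1016 and 742 in TGFB, against 414, 464, 351 and 969.7 in wildtype arrays. Wildtype 1 to 3 lay below every TGFB array and wildtype 4 lay above all but TGFB 3. The mean was 9.49 ± 0.40 in TGFB and 9.03 ± 0.63 in wildtype corneas (SD, n = 4 each), a difference of 0.46 (SE 0.32, 95% interval -0.27 to 1.18, limma adjusted p = 0.908).

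Gpc3, which binds hedgehog proteins and restrains growth of the embryo, showed the reverse picture. Probe set 1450990_at gave 1154, 730.3, 637 and 538 in TGFB, against 1200.3, 1067, 1233 and 494 in wildtype arrays. Wildtype 1 to 3 lay close together, and wildtype 4 was the lowest of all 8 arrays. The difference was -0.35 (SE 0.33, 95% interval -1.09 to 0.39, limma adjusted p = 0.921). Gpc4, a glypican that acts in FGF and WNT signalling, lies next to Gpc3 on the X chromosome in the RefSeq table, with 0 protein-coding genes between them. Its probe set 1421088_at gave 1041, 759, 791 and 835 in TGFB, against 849.8, 836, 628 and 705 in wildtype arrays, a difference of 0.18 (SE 0.16, 95% interval -0.18 to 0.54), and 1436514_at had 0.08 (SE 0.15). Over the 8 arrays Gpc4 and Gpc3 had r = 0.21.

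Gpc2 and Gpc5, the glypicans of neurons and other tissues that complete the family, were dim. Gpc2 reached 11.4 in TGFB, against 16.1 in wildtype arrays at most (difference -0.23, SE 0.19). Gpc5, the neighbour of Gpc6 on chromosome 14, reached 10.4 in TGFB, against 31.99 in wildtype arrays (difference -0.43, SE 0.21).

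The members did not all vary in one direction across the arrays. Over the 28 pairs of brightest probe sets, Gpc1 and Gpc3 ran in opposite directions (Pearson r = -0.84, Spearman rho = -0.86), as did Sdc1 and Gpc3 (r = -0.84, rho = -0.93), while Sdc1 and Gpc1 ran together (r = 0.79, rho = 0.86). Without the 2 arrays farthest from the median of the first gene named in each pair, these values were -0.76, -0.85 and 0.67. Arrays far out only in the second gene were kept, so wildtype 4 stayed in the pairs of Sdc1 with Gpc3 and Gpc1. Sdc1 and Gpc6 were opposed (r = -0.77), but less so without the 2 farthest arrays (r = -0.24). Sdc2 ran with Sdc3 (r = 0.76) and with Gpc6 (r = 0.74), and with the 2 farthest arrays left out these were 0.37 and 0.00021. These values describe 8 arrays, among them those with cornified transcripts and the one with the high Gapdh ratio.

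**Figure D3:**
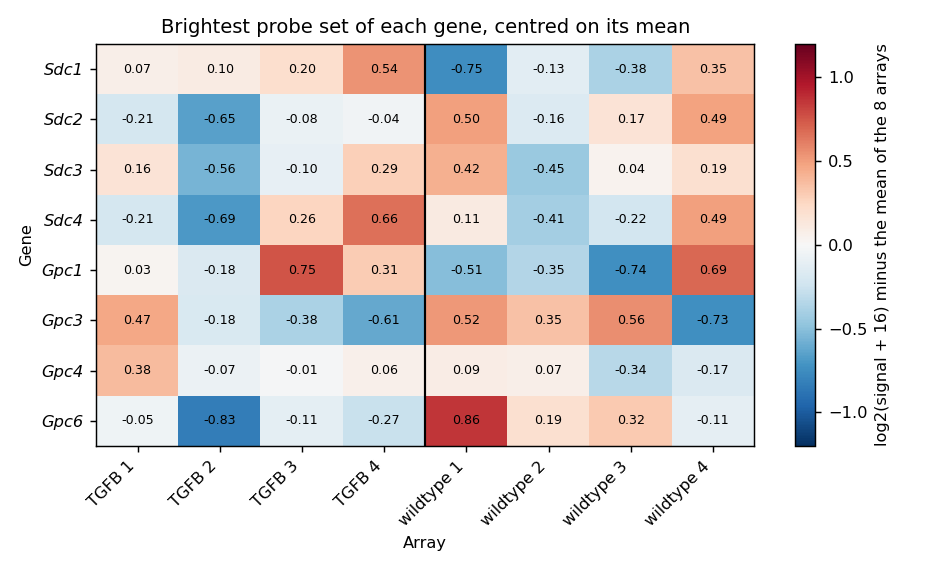
Brightest probe set of each gene on each array, as log2(signal + 16) minus its mean over the 8 arrays. Wildtype 4 has Sdc1 at 0.35, Gpc1 at 0.69 and Gpc3 at -0.73, where wildtype 1 to 3 have Sdc1 from -0.75 to -0.13, Gpc1 from -0.74 to -0.35 and Gpc3 from 0.35 to 0.56.

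The values of Sdc1, Gpc1 and Gpc3 depended on single arrays, in both directions. The Sdc1 1437279_x_at difference of 0.45 was 0.28 without wildtype 1, where that of 1415943_at was 0.14. For Gpc1, whose difference was 0.46, it was 0.28 without TGFB 3 and 0.29 without wildtype 3. For Gpc3, at -0.35 over all arrays, it was -0.21 without TGFB 4, -0.22 without wildtype 3 and -0.57 without TGFB 1. The Gpc4 1421088_at difference of 0.18 was 0.083 without TGFB 1 and 0.096 without wildtype 3. Those of Sdc2 1417011_at and Gpc6 1428774_at moved by less than 1.5 times with any 1 array left out.

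Leaving out wildtype 4 made the differences of the brightest probe sets of Sdc1, Sdc4, Gpc1, Gpc3 and Gpc6 larger in size. Then 5 of 22 members did not overlap between the groups, 3 higher and 2 lower, where 10.6% of all probe sets did not. The 3 higher ones were 2 of Sdc1 and that of Gpc1, and the 2 lower ones were of Gpc6. For all of them but Gpc6 1419688_at, which had no overlap before, wildtype 4 was the only wildtype array that overlapped the TGFB arrays, so leaving it out separates the groups by construction. The Sdc1 1437279_x_at difference was then 0.64 (SE 0.19, limma adjusted p = 0.297). That of Gpc1 was 0.76 (SE 0.23, limma adjusted p = 0.300), that of Gpc3 -0.66 (SE 0.25, limma adjusted p = 0.374) and that of Gpc6 1428774_at -0.77 (SE 0.24, limma adjusted p = 0.308). Sdc2 1417011_at moved the other way, to -0.41 (SE 0.21, limma adjusted p = 0.507). In all, 8 of 22 members had an unadjusted limma p under 0.05, 3 higher and 5 lower, where 11.7% of all probe sets did. The 8 were probe sets of Gpc6, Sdc1, Gpc1 and Gpc3, and those that share a gene are not separate observations. The adjusted threshold was passed by 0.00444% of all probe sets, none of them a member. Wildtype 4 had the highest Gapdh 3'/5' ratio, the highest Kera signal of 8110 and a Krt12 signal of 562. The part of these in its syndecan and glypican levels was not tested.

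**Figure D4:**
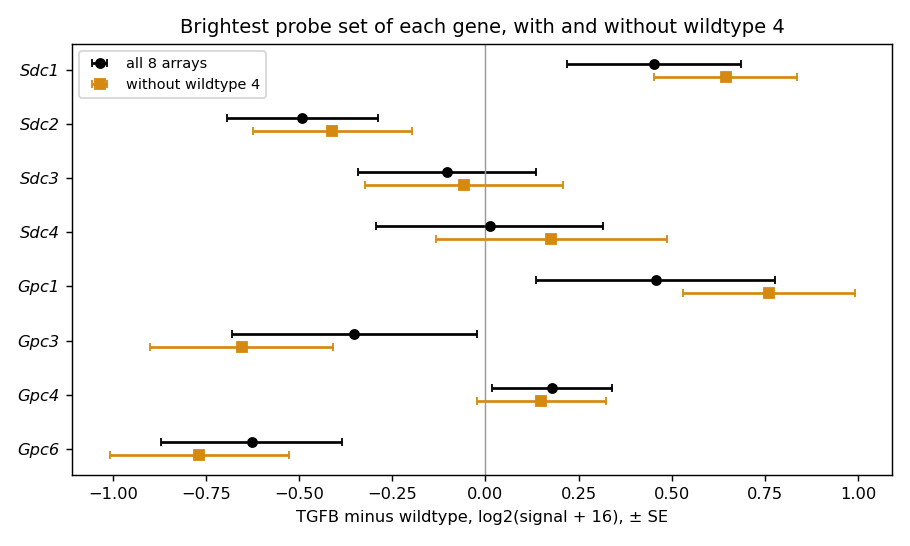
Difference between TGFB and wildtype corneas for the brightest probe set of each gene, with its SE, over all 8 arrays (black) and without wildtype 4 (orange). Sdc1, Sdc4, Gpc1, Gpc3 and Gpc6 lie farther from 0 without that array, and Sdc2, Sdc3 and Gpc4 lie nearer to 0.

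The arrays with cornified transcripts were also set apart. Among TGFB 1, TGFB 2 and wildtype 2 the brightest Gpc6 probe set had a difference of -0.63, and among the other 5 arrays one of -0.55 (SE 0.31). The first set holds 1 wildtype array, so its differences have no SE. Other Gpc6 probe sets had -0.39 and -0.34 (1419688_at), -0.20 and -0.25 (1437417_s_at), -0.81 and -0.21 (1419689_at), and 0.08 and -0.26 (1441438_at). The brightest Sdc1 probe set had 0.21 and 0.63 (SE 0.35), Gpc1 had 0.28 and 0.72 (SE 0.45), and Sdc2 had -0.27 and -0.44 (SE 0.20). By their brightest probe sets, 6 of the 8 genes had 1 sign in both sets of arrays, and Sdc3 (0.25 and -0.12) and Sdc4 (-0.04 and 0.33) had both signs. No member passed limma's adjusted threshold in the 5 arrays.

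Several marker lists had other means in the groups, though no marker passed limma's adjusted threshold. All 6 keratocyte markers had lower means in TGFB corneas, with summed signals of 13236 to 17999 in TGFB, against 17470 to 29676 in wildtype arrays. None of the 6 was below 16 on every array, but Angptl7 was below 16 on 6 of 8 arrays. Of 6 pigment cell markers all 6 were lower, at 3103 to 14614 in TGFB, against 14284 to 30058 in wildtype arrays. Of 4 nerve and Schwann cell markers measured all 4 were lower, at 2608 to 4041 and 3915 to 4789. The sums of each of these 3 lists overlapped between the groups, and each list mean gave an exact two-sided permutation p of 0.0571. Their single genes without overlap, all lower in TGFB, were Dcn of the keratocyte, Tyrp1 and Oca2 of the pigment cell and S100b of the nerve list. The corneal epithelial markers went both ways (5 of 9 higher, sums of 16032 to 21215 in TGFB, against 9557 to 21726 in wildtype arrays). Within that list 3 genes did not overlap. Krt14, at 4419 to 5045 in TGFB against 1274 to 3408 in wildtype arrays, and Epcam, at 799 to 1124 against 184 to 692, were higher in TGFB. Tkt, at 1890 to 2532 in TGFB against 2554 to 5914 in wildtype arrays, was lower, with a difference of -0.93 (SE 0.26). Pax6, the eye regulator, had -1.06 (SE 0.71) and the corneal crystallin gene Aldh3a1 -2.05 (SE 1.00), both with overlap. Aldh3a1 was at 4060 in wildtype 1, against 70.5 to 315 on the other wildtype arrays. The rest of the list also overlapped. Cdh1 had 0.84 (SE 0.26), Trp63 0.88 (SE 0.61), Krt5 0.30 (SE 0.32) and Krt12 -0.34 (SE 0.98). The share of all genes without overlap was 3.94%. Plasma and B cell markers were listed because plasma cells also carry syndecan-1. Of 6 measured, 5 had higher means, with sums of 1557 to 2710 in TGFB, against 1543 to 2487 in wildtype arrays. Each of these 5 differences was smaller than its SE, and the list mean gave an exact two-sided permutation p of 0.771. Most of each sum was Xbp1, at 1368 to 2347 in TGFB, against 1415 to 2123 in wildtype arrays. Among them Cd79a was below 16 on every array and Jchain reached 19.3 in TGFB, against 16.4 in wildtype arrays. Lens markers (8 of 8 lower), skeletal muscle markers (6 of 6 lower) and corneal endothelial markers (4 of 4 measured lower) overlapped in their sums, as did those of vascular endothelium (1 of 5 higher) and leukocytes (4 of 6 higher). The part of cell makeup in the differences of Sdc1, Sdc2 and Gpc6 was not tested. With the pigment marker mean as a covariate the Gpc6 1428774_at difference was -0.27, that of Sdc1 1437279_x_at 0.16 and that of Sdc2 1417011_at -0.33. With the keratocyte marker mean they were -0.39, 0.44 and -0.11, and with the corneal epithelial mean -0.63, 0.46 and -0.49. The pigment and keratocyte means differ between the groups themselves, so group and covariate cannot be told apart cleanly in 8 arrays.

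Among 13172 genes above the 40th percentile, the 3 that followed each member most closely over the 8 arrays were found by Pearson r of log2(signal + 16). Gpc6 was followed by Edil3, a secreted integrin ligand (r = 0.98), the junction protein gene Cgnl1 (r = 0.97) and the growth factor gene Pdgfd (r = 0.96), with differences of -0.59 (SE 0.23), -0.75 (SE 0.27) and -0.84 (SE 0.29). Sdc4 was followed by the actin-binding caldesmon Cald1 (r = 0.98), Rimkla (r = 0.98) and Trim44 (r = 0.98). Gpc1 was followed by Foxn3, Adamtsl3 and Ddx3x (r = 0.99, 0.99 and 0.98), and Gpc3 by Cep97, Fbxo9 and Ndufs7 (r = 0.98 each). The nearest to Sdc1 were Wbp4, Fubp3 and Pank2 (r = 0.97 each), to Sdc2 Tmed4, Tm2d3 and Slc35b2 (r = 0.98, 0.97 and 0.96), to Sdc3 Ogfr, Elmo1 and P3h3 (r = 0.95, 0.94 and 0.94) and to Gpc4 Akirin2, Nle1 and Lmcd1 (r = 0.96, 0.94 and 0.93). These are the highest of all genes searched, and with 8 arrays they are given as a description. Edil3, Cgnl1 and Pdgfd were picked for following Gpc6 over these same arrays. Their lower means in TGFB come with that choice and are not separate observations.

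The genes that build, edit, shed and use heparan sulfate were counted in 10 lists with 100 genes, of which 95 were measured, 1 probe set each. Limma's adjusted p under 0.05 was met by 0 of 95 (adjusted p from 0.834 to 0.999). The groups did not overlap in 3 of the 95 (Extl2, Ndst4 and Mdk), where 3.94% of all genes showed no overlap. Limma's unadjusted p was under 0.05 for 9 genes, 7 higher and 2 lower, where 7.23% of all genes were marked, 2.69% higher and 4.54% lower. The 95 had 54 higher and 41 lower members, where 47.4% of all genes were higher, and a median difference of 0.025, against -0.014 for all genes.

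**Figure D5:**
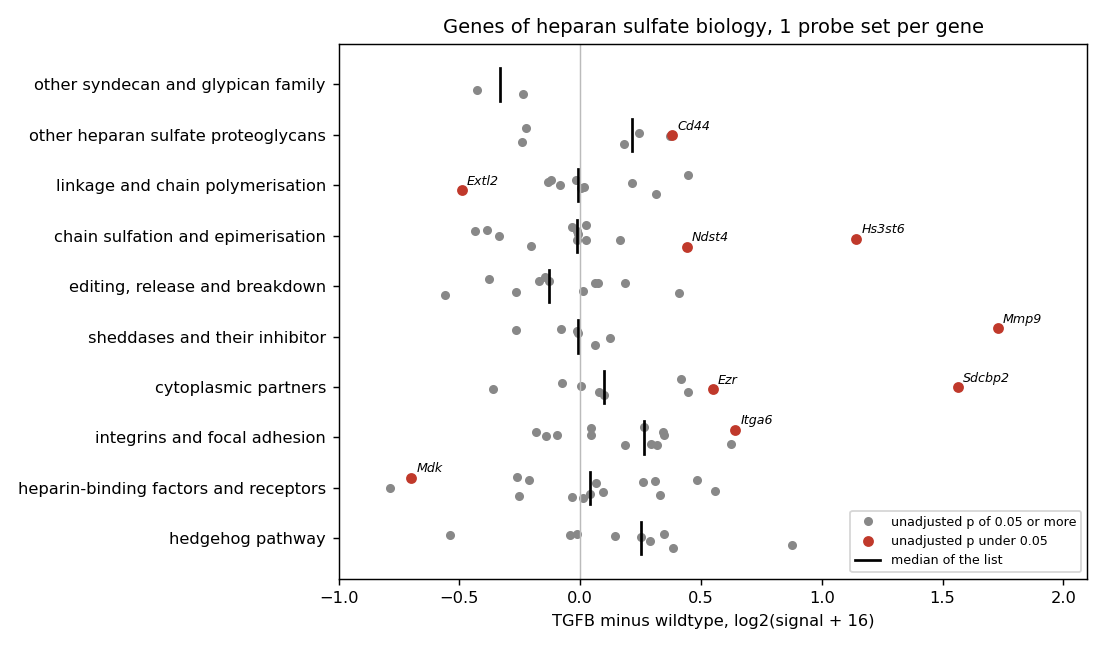
Difference between TGFB and wildtype corneas of 95 genes in 10 lists, as log2(signal + 16), with the median of each list as a black bar and genes with an unadjusted limma p under 0.05 in red and named. The 9 named genes are spread over 7 lists, with Mmp9 at 1.73 and Sdcbp2 at 1.56 the farthest right and Mdk at -0.70 the farthest left of them.

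Other heparan sulfate and related proteoglycans had 4 of 6 members higher. Cd44, the hyaluronan receptor, gave 1443, 1340.1, 1044 and 1234 in TGFB, against 905, 975.5, 837 and 1155 in wildtype arrays, a difference of 0.38 (SE 0.16, limma adjusted p = 0.839). Wildtype 4 was the only wildtype array above a TGFB array. Agrin (Agrn) had 0.24 (SE 0.14), betaglycan Tgfbr3, which presents TGF-beta to its receptor, 0.37 (SE 0.26) and perlecan Hspg2 -0.22 (SE 0.16).

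Chain-building enzymes had 5 of 10 members higher. Extl2, a transferase that limits chain synthesis, gave 451, 374, 447 and 361 in TGFB, against 729.7, 536, 554.6 and 513 in wildtype arrays, without overlap, a difference of -0.49 (SE 0.16, limma adjusted p = 0.837). Of all genes, 3.94% showed no overlap between the groups. Fam20b, a kinase of the linkage sugars, had 0.31 (SE 0.22), Extl1 0.45 (SE 0.28) and Extl3 -0.13 (SE 0.16).

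Sulfation enzymes had 5 of 13 members higher and 8 lower. The 3-O-sulfotransferase Hs3st6 gave 102, 97.1, 62.7 and 32.9 in TGFB, against 18.4, 28.8, 7.02 and 45.1 in wildtype arrays, a difference of 1.14 (SE 0.36, limma adjusted p = 0.837). Wildtype 4 and TGFB 4 crossed. Ndst4 did not overlap, as 3.94% of all genes did not, but was below a signal of 16 on all arrays. Hs3st3b1 had -0.44 (SE 0.22) and Hs3st1 -0.34 (SE 0.21). Among the editing and breakdown enzymes, with 5 of 11 higher, the sulfatase Sulf1 had -0.56 (SE 0.25, limma adjusted p = 0.846). Naglu had -0.38 (SE 0.26), Idua -0.17 (SE 0.13) and Hpse2, which is dim, 0.41 (SE 0.26).

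Of the sheddases and their inhibitor, 3 of 7 were higher. Mmp9, which sheds syndecan-1, gave 118, 17.4, 194 and 176 in TGFB, against 10.9, 12.8, 11.01 and 55.8 in wildtype arrays, a difference of 1.73 (SE 0.58, limma adjusted p = 0.837). TGFB 2 was near the wildtype arrays and wildtype 4 near the TGFB arrays. Adam17 had -0.26 (SE 0.16), Mmp2 0.12 (SE 0.33) and Timp3, the inhibitor, -0.08 (SE 0.34).

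Cytoplasmic partners had 7 of 9 members higher. The syntenin gene Sdcbp2, whose protein binds the syndecan tail, gave 170.4, 353, 73.9 and 80.0 in TGFB, against 24.8, 79.7, 20.6 and 38.6 in wildtype arrays, a difference of 1.56 (SE 0.47, limma adjusted p = 0.834). Its highest arrays in each group, TGFB 2 with TGFB 1 and wildtype 2, are those with cornified transcripts, whose part was not tested. Sdcbp, the other syntenin gene, had -0.36 (SE 0.21), ezrin Ezr 0.55 (SE 0.20) and Pdcd6ip, the ALIX gene, 0.45 (SE 0.24). Integrin and focal adhesion genes had 10 of 13 higher, among them Itga6 (0.64, SE 0.25), Itgb4 (0.34, SE 0.20), Vcl (0.35, SE 0.23) and Itga5 (0.62, SE 0.45).

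Heparin-binding factors and their receptors had 9 of 15 members higher. Midkine (Mdk), a heparin-binding growth factor that uses syndecans as receptors, gave 1934, 1512, 2005 and 2309.5 in TGFB, against 4172, 2408, 3649 and 2609.6 in wildtype arrays. The groups did not overlap, as in 3.94% of all genes, with a difference of -0.70 (SE 0.21, limma adjusted p = 0.834). Fgfr1 had 0.56 (SE 0.25), Met -0.79 (SE 0.42) and Hbegf 0.49 (SE 0.32). In the hedgehog pathway 6 of 9 were higher, with no unadjusted p under 0.05. Shh was at 618, 381, 33.3 and 65.4 in TGFB, against 39.0, 289.6, 54.7 and 58.6 in wildtype arrays, with the high values in TGFB 1, TGFB 2 and wildtype 2, the arrays with cornified transcripts (difference 0.88, SE 0.85). Hhip had -0.54 (SE 0.42), Ihh 0.25 (SE 0.20) and Dhh 0.35 (SE 0.28).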

How the data were processed

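Per the file headers and labels, the deposited table holds 1 intensity per probe set and array, 45101 in all. How the authors made and scaled them is not given in the sources, but the 2% trimmed mean of the deposited intensities was 150 on each array. Precision is limited by how few arrays there are. Medians ran from 26.3 to 34.4, and no column was set aside (0 unused). Control probe sets (64) were left out, and values were taken as log2(signal + 16) without further normalization. A platform annotation gave 1 symbol to 34945 probe sets, several to 932 and none to 9160, with current symbols from RefSeq GRCm38.p6. Arrays are numbered 1 to 4 in record order, which pairs none.

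TGFB was compared with wildtype by limma 3.58.1 in R 4.3.3 (lmFit, eBayes, 9.22 total degrees of freedom), adjusted over all 45037 probe sets by Benjamini-Hochberg, threshold 0.05, SE moderated. Differences are TGFB minus wildtype, on the log2 scale of the deposited signals. Exact two-sided permutation tests used the 70 assignments of arrays. For gene lists the probe set with the highest mean stood for the gene. Simulated data with known changes were used to check the limma fit. Members, lists and alternatives were chosen with earlier results of these data known. Named are all members, Gpc2 and Gpc5, up to 4 list genes with the smallest p, and the 3 genes most correlated with each member. Other genes named (Krt14, Epcam, Tkt, Pax6, Aldh3a1, Cdh1, Trp63, Krt5, Krt12, Kera, Angptl7, Dcn, Tyrp1, Oca2, S100b, Cd79a, Jchain and Xbp1) were picked with their values in view. The fits were repeated with an offset of 1 or 32, after median centring or quantile normalization, with dim probe sets left out, with 1 probe set per gene, with a variance trend, robust eBayes or array weights, with the cornified score as covariate, and with arrays left out. Covariates of epithelial, keratocyte and pigment markers were added after the data were seen.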

Additional observations from a re-analysis of the deposited data

Results flagged for a closer look

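Of 120 groups of 4 arrays tested among the members and named list genes, 8 held an array whose gap to its nearest neighbour divided by the group's range on the log2 scale exceeded Dixon's 95% critical value. About 1 in 20 groups does so by chance. Gpc6 1419688_at stood out through TGFB 2, at 74.1 against 115.7 to 116 on the other TGFB arrays (gap over range 0.985). Gpc3 1450990_at did so through wildtype 4, at 494 against 1067 to 1233 on the other wildtype arrays (0.840). Sdc1 1448158_at did so through TGFB 2, at 33.8 against 2.71 to 5.25 (0.870), all dim. Wildtype 4 was also apart in Mmp9 (55.8 against 10.9 to 12.8, 0.929), Itga5 (85.2 against 10.5 to 15.3, 0.877) and Hspg2 (129 against 173 to 180.3, 0.869). TGFB 4 was apart in Ndst4 (15.6 against 11.4 to 12.02, 0.842), and TGFB 1 in Hhip (127 against 32.8 to 42.6, 0.8292). Wildtype 4 thus accounts for 4 of the 8.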

How the results depend on the processing

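Differences were recomputed under 22 other settings, 8 of which left out 1 array each and 3 of which, the marker covariates, were chosen after seeing the data. Of 467 member values 418 kept their direction and 49 turned, in 12 of 22 probe sets, and no member passed the adjusted threshold under any setting (smallest adjusted p = 0.297 by limma). The count of members at an unadjusted p under 0.05, 2 in the report, was 0 with an offset of 1, 0 with the cornified score as covariate, 0 without the 3 arrays with cornified transcripts, 4 with quantile normalization, 4 with array weights, and 1 each with the keratocyte and the pigment marker mean. Leaving out 1 array gave 0 to 8, with 0 without TGFB 2, wildtype 1 or wildtype 3, 1 without TGFB 1 and 8 without wildtype 4. Over all probe sets the share marked was 5.86% in the report and 11.7% without wildtype 4. For the other settings that share was not counted, so their member counts cannot be set against the whole array. Probe sets past the adjusted threshold, 0 in the report, were 0 to 2, with 2 without wildtype 4.

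Turned differences were as follows. Median centring gave -0.0105 for Sdc1 1415944_at, -0.0140 for 1448158_at, -0.0183 for Sdc4 1448793_a_at and -0.0170 for 1417654_at. The offset of 1 gave -0.26 for Sdc1 1448158_at, and quantile normalization gave -0.00103 for Sdc4 1417654_at. Array weights gave -0.0938 for Sdc1 1415944_at, -0.19 for 1448158_at, 0.0793 for Sdc3 1450027_at, -0.00198 for Gpc4 1436514_at and 0.0982 for Timp3. The cornified score gave -0.11 for Sdc1 1415944_at, -0.17 for 1448158_at, 0.0366 for Sdc3 1450027_at and 0.17 for Timp3. Without the 3 arrays with cornified transcripts the values were -0.16 for Sdc1 1415944_at, -0.14 for 1448158_at, -0.00607 for Fam20b, -0.0258 for Mmp2, 0.22 for Timp3 and -0.0638 for Shh.

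The keratocyte mean gave -0.36 for Sdc1 1415944_at, -0.31 for 1448158_at, 0.37 for Sdc2 1448545_at, 0.14 for 1417012_at, 0.31 for Sdc3 1450027_at, -0.0132 for Sdc4 1417654_at, -0.00866 for Gpc4 1421088_at, -0.18 for 1436514_at, -0.00376 for Extl1, 0.34 for Naglu, 0.93 for Timp3, 0.17 for Sdcbp and -2.10 for Shh. The pigment mean gave -0.0481 for Sdc1 1415943_at, -0.22 for 1415944_at, -0.18 for 1448158_at, 0.25 for Sdc2 1448545_at, 0.0429 for 1417012_at, 0.0723 for Sdc3 1450027_at, -0.0992 for Sdc4 1417654_at, -0.00218 for Gpc4 1436514_at, 0.37 for Gpc6 1437417_s_at, 0.00894 for 1419689_at, -0.0894 for Tgfbr3, 0.30 for Naglu, -0.34 for Mmp2, 0.67 for Timp3, 0.26 for Met and -1.24 for Shh. With 1 array left out, the range was -0.11 to 0.14 for Sdc1 1415944_at, -0.32 to 0.15 for 1448158_at, -0.27 to 0.0653 for Sdc3 1450027_at, -0.21 to 0.24 for Sdc4 1448793_a_at, -0.0632 to 0.0778 for 1417654_at, -0.0447 to 0.49 for Mmp2 and -0.23 to 0.21 for Timp3. The cause of these turns was not tested.

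No paired analysis was possible because the array numbers follow record order and pair no arrays. Sdc1 1448158_at, below a signal of 16 on 6 of 8 arrays, turned with the offset, and values that dim are limited by background.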
